A study of Mus musculus with 11 samples.

Results

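The 10 LIM homeobox genes *Lhx1*, *Lhx2*, *Lhx3*, *Lhx4*, *Lhx5*, *Lhx6*, *Lhx8*, *Lhx9*, *Isl1* and *Isl2* were examined for the repressive histone mark H3K27me3 in the embryonic mouse forebrain. They were chosen by name, from the 21755 protein-coding genes of the annotation, and each was studied over a window of its gene body and 10 kb either side on the mm10 (GRCm38) genome. The mark was profiled by CUT&Tag, an assay in which an antibody directs a transposase to nucleosomes carrying the modification, in the medial (MGE), caudal (CGE) and lateral (LGE) ganglionic eminences and the cortex (CTX) of wild-type C57BL/6J mice. Of the 11 samples, MGE contributed 2 and each other region 3. In CGE, LGE and CTX, 2 of the 3 share replicate number 2 and differ in a final number, 1 or 2, in their titles. The labels do not say what that number means, or whether these samples came from separate animals. The text of the study places the CUT&Tag tissue at embryonic day 12.5, whereas the protocol in the labels names both 12.5 and 14.5 and no sample carries an age of its own. That protocol also speaks of combining equal numbers of nuclei from the 4 regions, although the label of each sample names a single region. Broad peaks were called on the merged samples of a region. With 1 peak list per region, the values carry no error between replicates, and differences between regions could not be tested.

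LIM homeobox genes encode transcription factors with a pair of zinc-binding LIM domains, which bind cofactors, and a homeodomain, which binds DNA. Combinations of these factors specify neuronal identity across the nervous system, and the genes are well-known targets of Polycomb complexes, which deposit H3K27me3 over CpG-rich developmental genes that are silent in a cell. In the forebrain, *Lhx2* is a selector gene of the cortical primordium, *Lhx6* and *Lhx8* act in neurons born in the MGE, and *Isl1* acts in striatal projection neurons of the LGE. A tissue piece mixes progenitors and neurons of several types, so a peak can come from any fraction of its cells, and fewer marked cells cannot be told apart from less of the mark per cell.

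The lists differed in size. They held 15384 peaks covering 24.5 Mb in MGE, 16851 peaks covering 26.4 Mb in LGE, 19196 peaks covering 32.9 Mb in CGE and 18785 peaks covering 31.2 Mb in CTX. The read depths given in the methods of the study order the regions as the covered bases do, with the fewest reads for MGE and the most for CGE. The part of depth in the differences below was not tested. As a check of the region labels, the MGE gene *Nkx2-1* had its lowest covered percent in the MGE list (42.7%). The CGE gene *Nr2f2* had its lowest in CGE (28.7%) and the cortical gene *Emx1* its lowest in CTX (14.7%). *Sp8*, which marks the dorsal LGE among other places, was lowest in CTX (17.1%) and not in LGE (29.6%). Among genes with covered bases in all 4 lists, MGE was lowest for 44.7%, LGE for 26.1%, CTX for 23% and CGE for 6.85%.

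Promoter sequences of the members were taken from a set of RefSeq promoters (build GRCm38.p6), which held 13 starts for 9 of the 10 genes. *Lhx5* had no entry in the set used here. The 250 bases before a start are shown 5′ to 3′ for 6 starts that differ in their peaks, with each CpG dinucleotide (the letters CG, the same on both strands) in capitals. The first 3 starts lay under a peak in MGE alone (the *Isl2* sequence over 78.4% of its length), the fourth in every list except MGE, the fifth in all 4 lists, and the last in none.
*Lhx2* first start, chr2:38339031-38339280, plus strand: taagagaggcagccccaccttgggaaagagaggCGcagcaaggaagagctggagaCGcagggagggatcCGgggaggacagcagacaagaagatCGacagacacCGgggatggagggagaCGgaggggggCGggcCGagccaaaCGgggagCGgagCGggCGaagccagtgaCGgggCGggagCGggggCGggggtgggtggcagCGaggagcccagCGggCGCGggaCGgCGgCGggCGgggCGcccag
*Lhx9*, chr1:138842445-138842694, minus strand: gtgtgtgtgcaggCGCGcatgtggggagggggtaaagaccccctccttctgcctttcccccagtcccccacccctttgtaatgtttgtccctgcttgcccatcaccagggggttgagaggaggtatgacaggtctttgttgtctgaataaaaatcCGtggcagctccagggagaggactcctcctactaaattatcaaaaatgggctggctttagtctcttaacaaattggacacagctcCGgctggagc
*Isl2*, chr9:55540899-55541148, plus strand: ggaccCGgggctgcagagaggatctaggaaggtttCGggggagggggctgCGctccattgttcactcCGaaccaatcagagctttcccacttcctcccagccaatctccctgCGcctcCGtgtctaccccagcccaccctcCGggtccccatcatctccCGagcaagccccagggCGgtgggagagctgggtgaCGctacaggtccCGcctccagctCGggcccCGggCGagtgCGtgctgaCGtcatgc
*Lhx6* second start, chr2:36104534-36104783, minus strand: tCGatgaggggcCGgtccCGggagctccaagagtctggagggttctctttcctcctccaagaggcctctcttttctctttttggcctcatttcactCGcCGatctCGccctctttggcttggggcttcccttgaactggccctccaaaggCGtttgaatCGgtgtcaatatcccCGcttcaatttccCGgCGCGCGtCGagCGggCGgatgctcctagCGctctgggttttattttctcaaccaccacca
*Isl1*, chr13:116309689-116309938, minus strand: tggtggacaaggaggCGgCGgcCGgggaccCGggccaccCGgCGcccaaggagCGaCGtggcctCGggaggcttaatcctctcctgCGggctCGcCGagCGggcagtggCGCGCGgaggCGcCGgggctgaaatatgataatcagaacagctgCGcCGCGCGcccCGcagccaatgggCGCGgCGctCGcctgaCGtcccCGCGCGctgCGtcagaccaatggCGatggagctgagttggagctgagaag
*Lhx1*, chr11:84525535-84525784, minus strand: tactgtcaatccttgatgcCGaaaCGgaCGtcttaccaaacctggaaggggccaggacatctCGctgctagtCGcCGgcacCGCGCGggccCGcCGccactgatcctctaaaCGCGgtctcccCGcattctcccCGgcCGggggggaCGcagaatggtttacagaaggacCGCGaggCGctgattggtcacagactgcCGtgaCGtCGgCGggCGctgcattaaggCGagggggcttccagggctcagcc

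These stretches held 25 CpGs for *Lhx2*, 4 for *Lhx9*, 16 for *Isl2*, 17 for the *Lhx6* second start, 33 for *Isl1* and 26 for *Lhx1*. Over all 32851 RefSeq promoters the median was 6, and 92.1% held at least 1 CpG. A count as high as that of *Isl1* was found in 4.03% of promoters, and one as high as that of *Lhx1* in 9.59%. The richest promoters thus included one covered in every list and one covered in none.

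Every member was marked in every region. All 10 windows held covered bases in all 4 lists, against 36.1% of all protein-coding genes. The median covered percent of the 10 windows was 30.3% in MGE, 25.9% in LGE, 30.5% in CGE and 29.8% in CTX. The median over all 21755 genes was 0 in each list, and over the 7858 genes with covered bases in all 4 lists it was 4.16% in MGE, 4.72% in LGE, 5.69% in CGE and 4.95% in CTX. The lowest value of any member was 13.9% (*Lhx2* in CTX) and the highest 44.4% (*Isl1* in MGE).

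**Figure D1:**
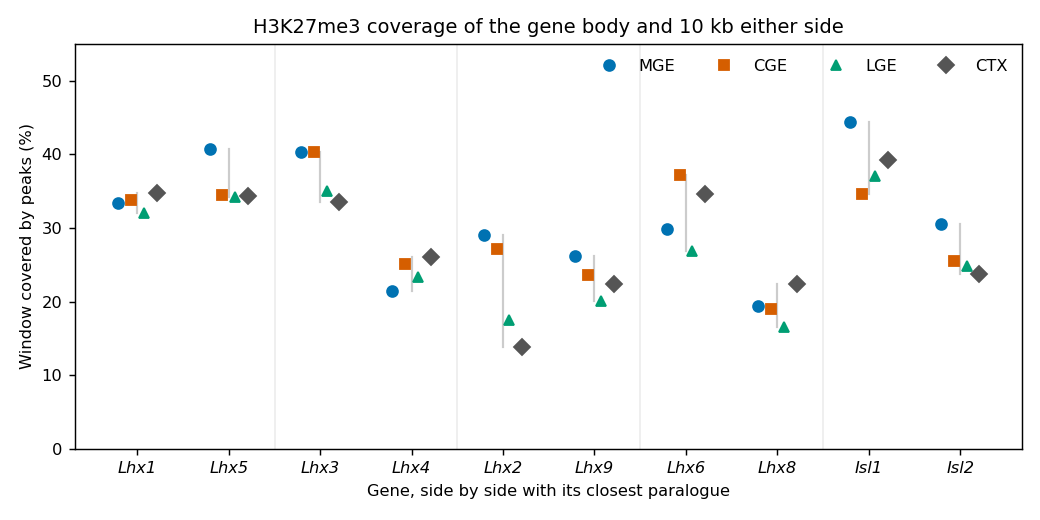
Percent of each gene's window (gene body and 10 kb either side) covered by H3K27me3 peaks, with 1 point per region's merged list (MGE, CGE, LGE, CTX) and a grey line from the lowest to the highest. *Lhx2* spreads from 13.9% in CTX to 29.1% in MGE, whereas the points of *Lhx1* lie between 32.0% and 34.7%.

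Regional differences were small next to these levels for most members. The highest and lowest lists differed by 10 percentage points or more for 2 of the 10 genes, *Lhx2* and *Lhx6*, against 2.02% of all genes, and *Isl1* lay just under that limit at 9.79 points. With lists of equal covered bases *Isl1* passed the limit (12.9 points) and *Lhx6* did not (9.51). *Isl1* also passed it with peaks under 3 kb apart joined (11.5), flanks of 5 kb (13.9) and gene bodies alone (10.0). It stayed under it with a q-value under 0.001, equal numbers of peaks or flanks of 20 kb. The median difference was 6.61 points for the members, 0.440 points over all genes and 1.97 points over genes covered in all 4 lists. When each list was set against the mean of the other 3, *Lhx2* alone passed 10 points, and it did so as a gene with less coverage in CTX, a pattern seen in 0.239% of all genes. No member had 10 points more in CTX (0.23% of all genes), less in MGE (0.234%), more in MGE (0.133%), less in CGE (0.023%), more in CGE (0.372%), less in LGE (0.106%) or more in LGE (0.0414%).

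Although the MGE list covered the fewest bases of the genome, it had the highest covered percent for 6 members, namely *Isl1*, *Isl2*, *Lhx2*, *Lhx3*, *Lhx5* and *Lhx9*. Among genes covered in all 4 lists, MGE was highest for 12.2%. With peaks under 3 kb apart joined, MGE was highest for 3 members, a setting with no share computed over all genes. CTX was highest for 3 members (*Lhx1*, *Lhx4*, *Lhx8*), with 27.3% among those genes, CGE for 1 (*Lhx6*), with 48.3%, and LGE for 0, with 12.8%. LGE was the lowest list for 5 members, against 26.1% of the genes covered in all 4 lists, and CTX was lowest for 3 (23%). MGE and CGE were lowest for 1 each (44.7% and 6.85%). In total the peaks covered 118 kb of the 10 windows in MGE, 101 kb in LGE, 116 kb in CGE and 109 kb in CTX.

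*Lhx2* (chr2:38339281-38369733, plus strand), the selector gene of the cortex, showed the widest regional spread. Its window was covered over 29.1% in MGE, 17.5% in LGE, 27.2% in CGE and 13.9% in CTX. CTX lay 10.7 points below the mean of the 3 GEs, which was 24.6%, and this call was lost with flanks of 20 kb or with peaks under 3 kb apart joined. In covered percent of the window, MGE and CGE were close to each other, and LGE lay nearer to CTX than to them. That held for the gene body, with 15.7% in LGE, 16.1% in CTX, 30.9% in CGE and 34.6% in MGE. It did not hold for the 10 kb upstream, where LGE had 29.15%, CGE 29.9%, MGE 27.7% and CTX 9%.

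The peaks around the *Lhx2* 5′ end differed in shape as well as extent. In MGE a single peak of 5649 bases ran from 2.77 kb upstream to 2.88 kb downstream and covered the start. In CGE it was replaced by an upstream peak ending 742 bases before the start and a downstream peak of 989 bases beginning 566 bases after it, leaving a break of 1307 bases. In LGE the upstream peak ended 747 bases before the start and the next peak lay 7.18 kb downstream, a break of 7925 bases. In CTX an upstream peak of 900 bases and a downstream peak of 625 bases flanked a break of 1998 bases. The promoter sequence printed above was thus covered over its full length in MGE and over none of it in the other lists. The peaks of *Lhx2* were also weak in CTX. Its strongest peak had a −log10 q of 8.36 there, above 69.5% of the peaks of that list, against 16.1 in MGE (83.6%), 40.7 in LGE (90.1%) and 54.1 in CGE (91.2%). A second RefSeq start, 12.0 kb inside the gene, was free of peaks in every list, although a peak of 3133 to 3496 bases followed 489 to 892 bases beyond it in all 4.

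*Lhx9* (chr1:138825186-138848577, minus strand), the paralogue of *Lhx2* with roles in gonad and thalamus development, did not follow it. Its window was covered over 26.1% in MGE, 20.1% in LGE, 23.6% in CGE and 22.4% in CTX. A peak of 3588 to 3733 bases lay over its annotated 5′ end in all 4 lists, with nearly the same limits. The regions parted further downstream. In MGE 1 peak of 7429 bases ran from 4.78 to 12.2 kb, and in LGE the same stretch held 3 separate peaks of 453, 631 and 3511 bases. CGE held peaks of 416 and 5299 bases there, and CTX 1 peak of 4936 bases that began at 6.77 kb. The RefSeq start of *Lhx9*, 6133 bases inside the GENCODE gene, fell into this stretch. It was under the peak in MGE, and 550 to 637 bases from the nearest peak in the other lists. *Lhx2* exceeded *Lhx9* by 2.94 points in MGE and 3.59 points in CGE, and lay below it by 2.60 points in LGE and 8.57 points in CTX. Over the gene bodies without flanks the difference was −9.12 points in MGE, −16.8 in LGE, −8.30 in CGE and −20.9 in CTX, so that *Lhx2* was the less covered gene in every list.

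*Lhx6* (chr2:36081953-36105408, minus strand), required by MGE-derived interneurons, was the other gene past 10 points. Its window was covered over 29.9% in MGE, 26.8% in LGE, 37.2% in CGE and 34.6% in CTX. CGE and CTX were high and MGE and LGE low. MGE, where the gene is known to act, was not the lowest list over this window, but over the gene body without flanks it was, with 39.3% against 40.7% in LGE. The lists differed in where the mark was interrupted. In CGE, LGE and CTX 1 unbroken peak of 8353, 6063 and 8092 bases covered the annotated 5′ end and the following kilobases. In MGE this peak was split by a break of 1231 bases, from 205 to 1435 bases downstream of the 5′ end, that was fully covered in the other 3 lists.

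The MGE break in *Lhx6* held 2 of the 3 RefSeq starts of the gene. The start at 875 bases lay 561 bases from the nearest MGE peak and the one at 1348 bases lay 88 bases from it, and both were under a peak in CGE, LGE and CTX. The 250 bases before each were covered over 0% in MGE and 100% in the others, whereas those before the first start were covered over 100% in every list. LGE had a break of its own, of 1194 bases from 12.4 to 13.6 kb inside the gene, where MGE, CGE and CTX were covered throughout. In CGE a weak peak of 389 bases with a −log10 q of 1.19, 26.4 kb from the 5′ end, added to the coverage. The difference between CGE and LGE fell short of 10 points in several other settings. It was 9.51 points without peaks of q 0.001 or more, with equal numbers of peaks and with equal covered bases, 7.66 points with peaks under 3 kb apart joined and 7.13 points with flanks of 20 kb.

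*Lhx8* (chr3:154306294-154330659, minus strand), which directs cholinergic neurons of the ventral forebrain, had the least covered window of the 10 genes on average. It was covered over 19.4% in MGE, 16.6% in LGE, 19.0% in CGE and 22.3% in CTX. All peaks lay within 5.32 kb upstream and 4.64 kb downstream of the 5′ end. Within this stretch CTX had 1 peak of 9906 bases without a break, MGE had a break of 1185 bases that began 1067 bases downstream of the 5′ end, and CGE and LGE had breaks of 1360 and 1194 bases that ended just past it. The annotated 5′ end was thus under a peak in MGE and CTX and missed by 52 bases in CGE and 34 bases in LGE. The RefSeq start, 99 bases further in, was covered in all 4. In each list *Lhx6* was more covered than its paralogue *Lhx8*, by 10.5 points in MGE, 10.3 in LGE, 18.2 in CGE and 12.3 in CTX.

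**Figure D2:**
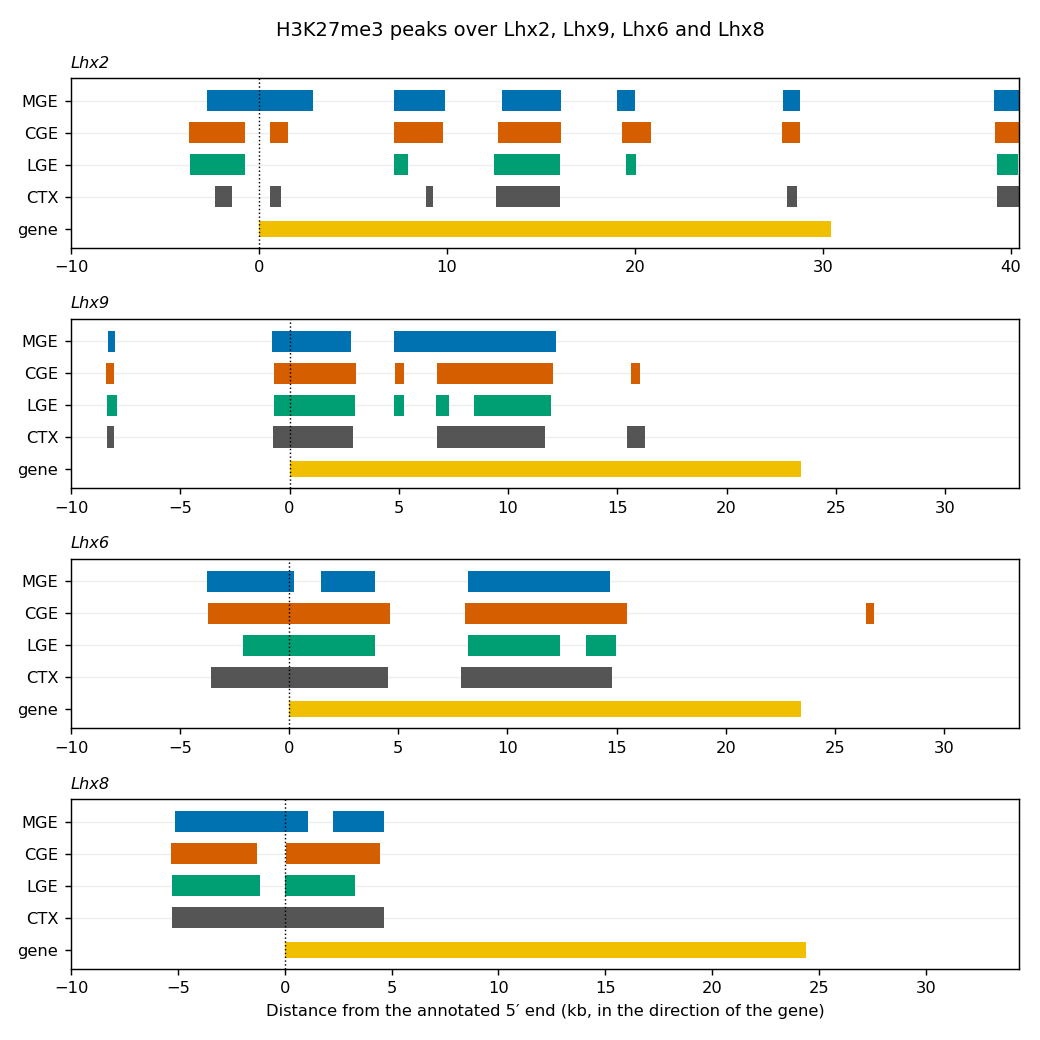
Position of H3K27me3 peaks (bars, 1 row per region's merged list) by distance from the annotated 5′ end in kb, with the gene body in yellow and the 5′ end as a dotted line. The *Lhx2* 5′ end lies under a peak in MGE and in a break of 1307 to 7925 bases elsewhere, *Lhx6* is split by a break of 1231 bases just inside the gene in MGE, and *Lhx8* is covered by 1 unbroken peak of 9906 bases in CTX.

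*Isl1* (chr13:116298281-116309689, minus strand), which acts in motor neurons and striatal projection neurons, was the most covered member on average. Its window was covered over 44.4% in MGE, 37.1% in LGE, 34.6% in CGE and 39.2% in CTX. LGE, where the gene is known to act, was neither the highest nor the lowest list. A narrow peak of 965 to 1100 bases sat on its 5′ end in all 4 lists, and it was the weakest peak of the gene in each, with a −log10 q of 1.52 in MGE, 3.80 in LGE, 2.62 in CGE and 6.32 in CTX. The difference between lists came mainly from the 3′ side. In MGE 1 peak of 4550 bases ran from 11.9 to 16.4 kb past the 5′ end, beyond the end of the gene, and this stretch was split by a break of 1164 bases in LGE, 1779 in CGE and 1447 in CTX.

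*Isl2* (chr9:55538672-55546180, plus strand), a factor of motor neurons and retinal ganglion cells, was covered over 30.6% in MGE, 24.9% in LGE, 25.5% in CGE and 23.8% in CTX. Its 10 kb upstream were almost free of the mark, with 0.04% covered in each GE list and 0% in CTX. The GE peaks began 4 bases before the annotated 5′ end, and the CTX peak 64 bases after it. The main peak of the gene was 6231 bases wide in MGE and 4717 to 4810 bases wide in the others, since it began at 2.28 kb in MGE and between 3.38 and 3.50 kb elsewhere. The RefSeq start of *Isl2*, 2.48 kb inside the GENCODE gene, lay under the peak in MGE and 906 to 1025 bases short of it in the other lists. *Isl1* exceeded *Isl2* by 13.8 points in MGE, 12.2 in LGE, 9.07 in CGE and 15.5 in CTX, but over the gene bodies without flanks *Isl2* was the more covered gene in every list.

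*Lhx1* and *Lhx5* act together in Cajal-Retzius cells and other early neurons. The window of *Lhx1* (chr11:84518284-84525535, minus strand) was covered over 33.4% in MGE, 32.0% in LGE, 33.8% in CGE and 34.7% in CTX, but with peaks under 3 kb apart joined the spread was 11.4 points, from 47.1% in LGE to 58.5% in CTX. It held 4 peaks in every list, with limits that moved little, and its 5′ end lay in a break of 2540 bases in MGE, 2679 in LGE, 2684 in CGE and 2582 in CTX. *Lhx5* (chr5:120431699-120441223, plus strand) was covered over 40.7% in MGE, 34.3% in LGE, 34.5% in CGE and 34.4% in CTX. It also held 4 peaks in every list, but its 5′ end lay under a peak of 3754 to 3984 bases in all of them. The MGE excess of *Lhx5* came from the most upstream peak, which reached 7.53 kb before the 5′ end in MGE and 5.89 to 5.94 kb in the other lists.

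*Lhx3* and *Lhx4*, paralogues with roles in pituitary and motor neuron development, were marked in unlike ways. *Lhx3* (chr2:26200212-26208289, minus strand) was covered over 40.4% in MGE, 35.0% in LGE, 40.3% in CGE and 33.6% in CTX. A single peak without a break ran over 90.1% to 95.1% of its gene body in every list, starting 397 to 802 bases inside the gene. It ended 12.0 kb from the 5′ end in MGE, 11.8 kb in CGE and 10.2 kb in both LGE and CTX, past the end of the gene. *Lhx4* (chr1:155698031-155751684, minus strand), the longest member at 53.7 kb, was covered over 21.5% in MGE, 23.3% in LGE, 25.2% in CGE and 26.1% in CTX. Its main peak of 7215 to 7735 bases lay 8.14 to 15.9 kb inside the GENCODE gene and covered its RefSeq start in all 4 lists. The more distant GENCODE 5′ end was under a peak of 1474 bases in CTX, and 426 to 801 bases from one in the GEs. A peak 39.2 to 41.3 kb inside *Lhx4* was called in CGE and LGE, with a −log10 q of 1.58 and 1.45, and in neither MGE nor CTX.

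**Figure D3:**
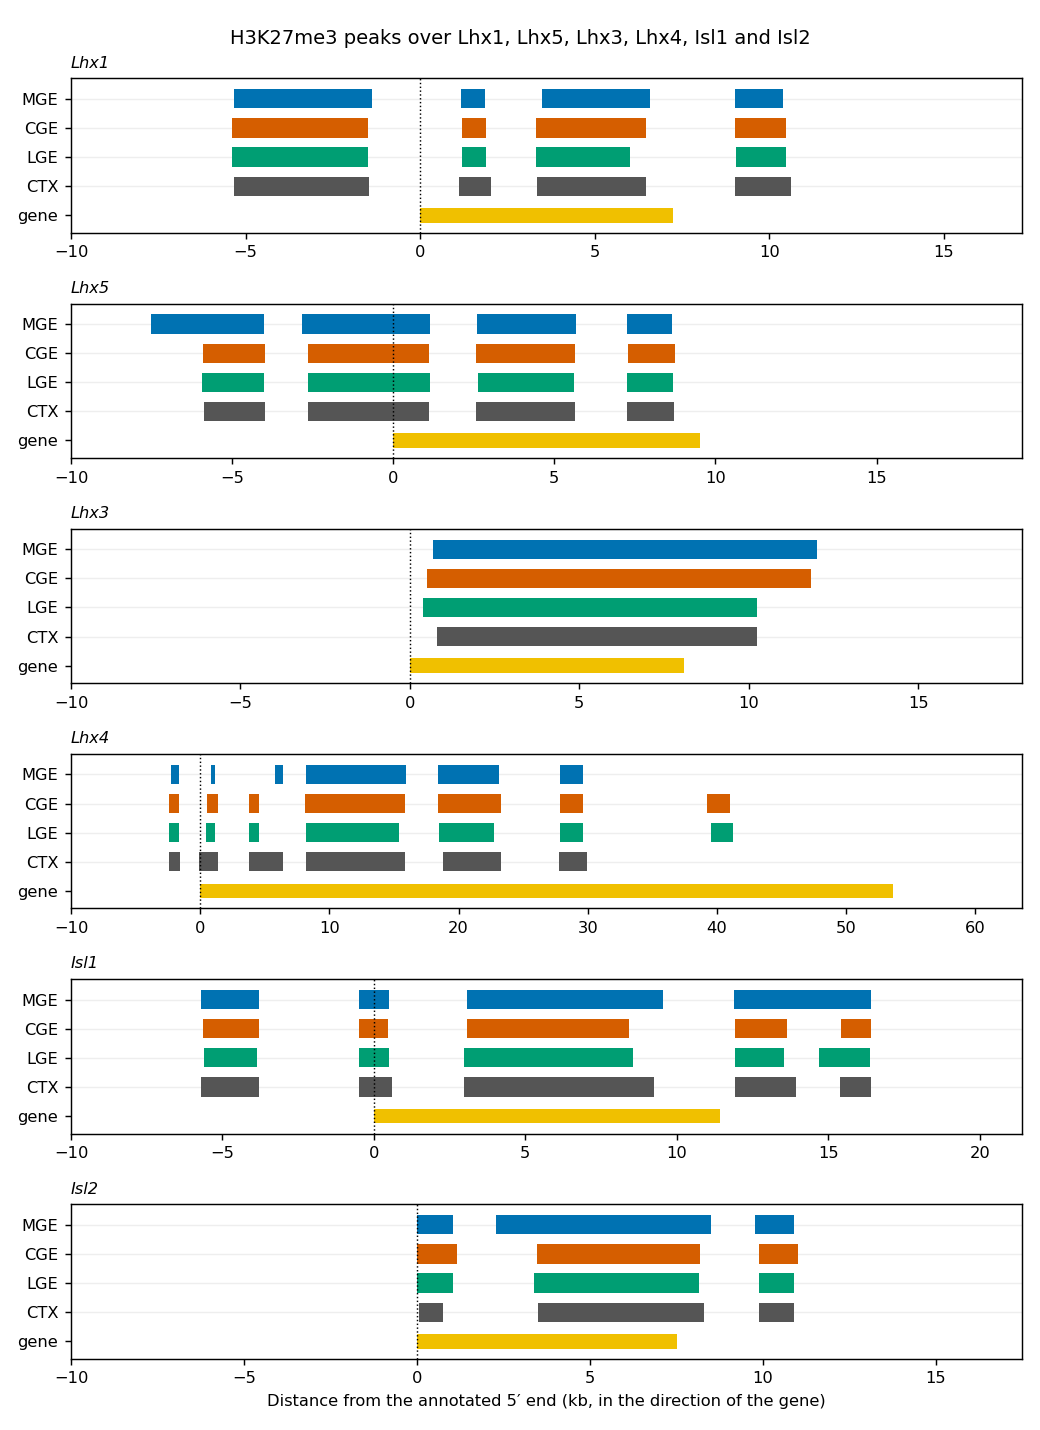
Position of H3K27me3 peaks (bars, 1 row per region's merged list) by distance from the annotated 5′ end in kb for the other 6 genes, with the gene body in yellow and the 5′ end as a dotted line. *Lhx1*, *Lhx5* and *Lhx3* have the same number of peaks in every list (4, 4 and 1), and the last stretch of *Isl1* is unbroken over 4550 bases in MGE and split in the other lists.

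Counted over the family, the annotated 5′ end lay under a peak for 7 of 10 genes in MGE, against 19.2% of all genes. LGE (20.8%) and CGE (20.9%) had 5 each, and CTX had 6 (22.8%). It was so in all 4 lists for 4 genes, *Isl1*, *Lhx5*, *Lhx6* and *Lhx9* (14.5% of all genes), and in some but not all lists for *Isl2*, *Lhx2*, *Lhx4* and *Lhx8* (14.2%). *Lhx1* and *Lhx3* were free of peaks at the annotated 5′ end throughout. When the 5′ end of any annotated transcript was accepted, the counts were 9 in MGE (24.5% of all genes) and 10 in LGE (26.3%), CGE (26.1%) and CTX (28.6%).

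The RefSeq starts, which lie up to 12027 bases inside the GENCODE genes (*Lhx2* second start), ordered the family differently. Of the 9 genes with an entry, 5 had a start under a peak in every list, namely *Isl1*, *Lhx3*, *Lhx4*, *Lhx6* and *Lhx8*, against 16% of the 16450 genes found in both annotations. In MGE the count was 8 (21.2% of those genes), and in CGE, LGE and CTX it was 5 each (22.6%, 22.7% and 25.4%). The additional MGE genes were *Isl2*, *Lhx2* and *Lhx9*, each covered at a start in MGE alone, a state found for 1.28% of genes.

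Most of the marked sequence was shared. Of the 134107 bases of the 10 windows that were covered in any list, 65.2% were covered in all 4 lists, 12.6% in 3, 10.0% in 2 and 12.2% in 1. The share covered in all 4 lists was highest for *Lhx1* (85.5%), *Lhx5* (82.3%) and *Lhx3* (81.2%), and lowest for *Lhx2* (30.2%). *Lhx8* followed *Lhx2* with 59.1%. Of the bases covered in 1 list, 9687 were in MGE, 3260 in CTX, 2859 in CGE and 511 in LGE, and *Lhx2* contributed 3045 of those in MGE. Of the bases missing from 1 list, 8162 were missing from LGE, 4426 from MGE, 3900 from CTX and 416 from CGE. None of these shares or base counts was computed for other genes, so they describe the 10 windows alone.

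**Figure D4:**
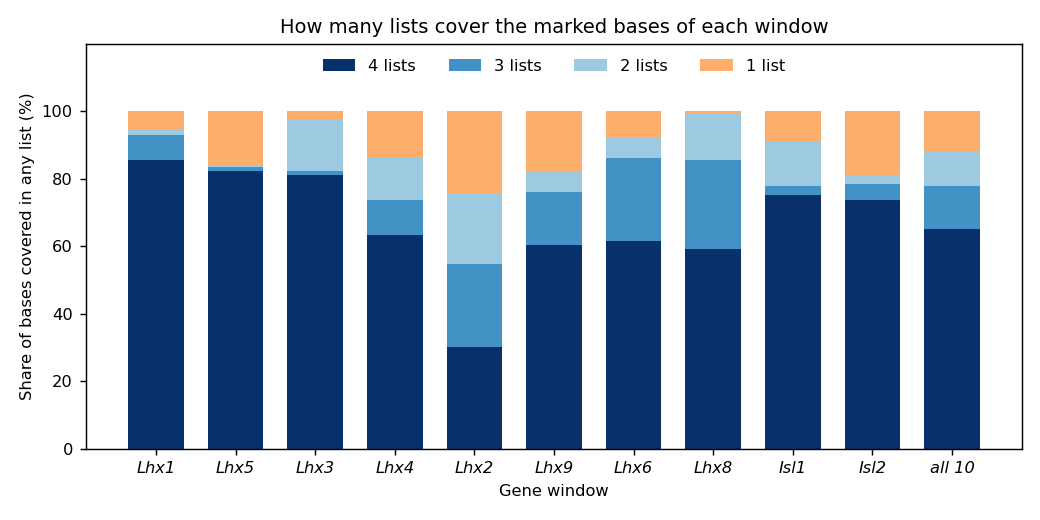
Bases covered by a peak in at least 1 list, split by the number of lists (4, 3, 2 or 1) that cover them, as a percentage for each gene window and for all 10 together. The share in all 4 lists is 30.2% for *Lhx2* and between 59.1% and 85.5% for the other genes.

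Similarity was measured by the Jaccard index (bases shared by a pair of lists, as a percentage of the bases that either covers), which was higher over the 10 windows than over all chromosomes for each pair. It was 83.7% for CGE and LGE over the windows against 60.1% over the chromosomes, and 73.3% against 57.1% for MGE and LGE, the lowest pair over the windows. The pair of MGE and CTX, lowest over the chromosomes at 46.5%, had 77.7% over the windows. The other pairs had 79.9% against 54.9% (MGE and CGE), 82.6% against 51.5% (CGE and CTX) and 79.1% against 54.5% (LGE and CTX). Over *Lhx2* alone the index ranged from 44.7% for MGE and CTX to 69.3% for MGE and CGE, and over *Lhx1* from 88.5% to 94.9%.

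Peaks over the family were wide. The median over the 10 genes of the widest peak was 6356 bases in MGE, 4437 in LGE, 5008 in CGE and 5607.5 in CTX, against 2030, 2151, 2397 and 2213 bases in the same order over genes covered in all 4 lists. MGE had the widest peak for 7 members, against 13.4% of those genes. CGE had it for 2 (49%), CTX for 1 (25.3%) and LGE for 0 (12.9%). The strongest peak of a member, by the authors' −log10 q, was in CGE for 7 members, near the 69.9% of those genes for which this was so. It was in LGE for 3 (9.85%), and in MGE (1.74%) and CTX (18.5%) for 0. The widest of all was that of *Lhx3*, with 11334 bases in MGE and 11319 in CGE. The width varied most for *Lhx8*, from 4103 bases in LGE to 9906 in CTX, and for *Lhx9*, from 3686 in LGE to 7429 in MGE. It varied little for *Lhx1* (3859 to 3939 bases) and *Lhx5* (3754 to 3984 bases).

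**Figure D5:**
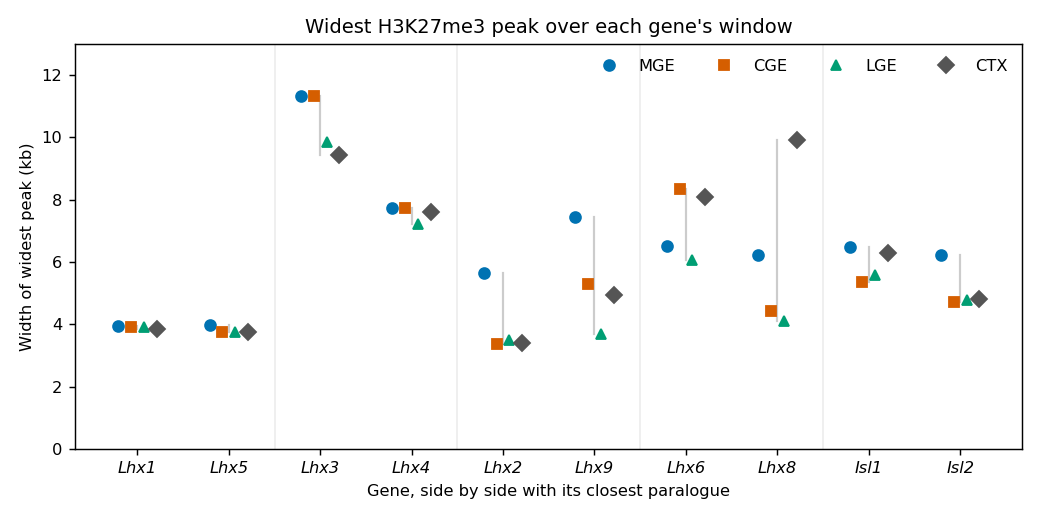
Width in kb of the widest H3K27me3 peak that overlaps each gene's window, with 1 point per region's merged list and a grey line from the lowest to the highest. *Lhx3* has the widest peaks (9428 to 11334 bases), and *Lhx8* and *Lhx9* have the widest spread between lists.

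The 10 windows held 26 breaks in MGE, 29 in LGE, 31 in CGE and 26 in CTX, a break being an uncovered stretch between neighbouring peaks of a list. When breaks that overlapped between lists were chained into groups, 29 groups resulted, and 20 of them included a break from every list. Such a group can still hold a break that another list bridges. At the *Lhx2* 5′ end, for example, MGE covered the CGE and CTX breaks in full. The other 9 groups were in *Lhx6* (3), *Lhx8* (2), *Lhx9* (2), *Isl1* (1) and *Lhx4* (1). Each break of *Lhx8* was bridged by a peak in 2 or 3 other lists, and MGE bridged breaks of CGE, LGE or CTX in *Lhx2*, *Lhx9* and *Isl1*. No break of *Lhx1*, *Lhx5*, *Lhx4* or *Isl2* was fully bridged in another list.

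Within the windows, the mark lay mainly over the gene bodies. The median covered percent of the gene body was 48.0% in MGE, 43.7% in LGE, 51.2% in CGE and 52.0% in CTX. In the same order it was 26.0%, 21.9%, 26.6% and 17.5% for the 10 kb upstream, and 6.76%, 5.67%, 8.51% and 6.01% for the 10 kb downstream. The gene body exceeded both flanks for 8 members in MGE and LGE and for 9 in CGE and CTX. The exceptions were *Lhx5* in MGE, *Lhx2* in LGE and, in every list, *Lhx8*, whose upstream 10 kb were covered over 51.5% in MGE, 41.0% in LGE, 40.1% in CGE and 52.6% in CTX against 14.2%, 13.3%, 18.1% and 19.1% of its gene body. Introns held 52.7% to 55.8% of the covered bases and exons 13.9% to 15.3%. Other genes shared some windows, among them the noncoding *Lhx1os*, which begins just upstream of *Lhx1* on the opposite strand, *Gm27199* at the 5′ end of *Lhx5*, *Gm27196* and *Qsox2* beside *Lhx3*, *AI606473* upstream of *Lhx8* and *Morn5* downstream of *Lhx6*. A peak over such a stretch cannot be assigned to either gene.

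Covered bases were richer in CpG, which the choice of the genes did not use. Over the 10 windows, bases covered in all 4 lists held 32.7 CpG per kb and a GC content of 53.7%, bases covered in 1 to 3 lists 24.1 CpG per kb and 49.5%, and bases covered in none 12.8 CpG per kb and 45.4%. The CpG density rose in this order in 7 of the 10 genes, the exceptions being *Lhx1*, *Lhx4* and *Lhx8*. *Lhx1* differed least, with 24.7 CpG per kb where no list had a peak and 26.4 where all 4 did.

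The genes with coverage most like that of *Lhx2*, by the distance between their covered percents over the 4 lists, were *Dkk1* (6.06 points away), *1700122O11Rik* (7.03) and *Emx1* (7.96). *Emx1* was covered over 28.5% in MGE, 25.3% in LGE, 28.2% in CGE and 14.7% in CTX. The genes most like *Lhx6* were *Icam4* (3.73 points away), *Icam1* (4.98) and *Mab21l1* (5.07).

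Related genes and cofactors had lower medians. The 12 examined were the further LIM homeobox genes *Lmx1a* and *Lmx1b*, the LIM-only genes *Lmo1* to *Lmo4*, the LIM domain-binding cofactors *Ldb1* and *Ldb2*, their partners *Ssbp2*, *Ssbp3* and *Ssbp4*, and *Rlim*, a ubiquitin ligase that targets the cofactors. Their median covered percent was 3.65% in MGE, 5.84% in LGE, 5.39% in CGE and 6.16% in CTX. *Lmx1b* was an exception, and lay above every one of the 10 members in LGE (38.1% against at most 37.1%) and CTX (44.2% against at most 39.2%), as *Lmo4* did in CTX with 39.6%. Window length also enters these percents, since the members are at most 53.7 kb long and *Ldb2* is 328 kb long. In MGE *Lmx1a*, 160 kb long, held 13657 covered bases at 7.61%, and *Lhx1* held 9114 at 33.4%. Not every gene with little coverage is long, with *Ldb1* at 13.6 kb. The part of length was not tested. *Ldb1*, the broadly used cofactor, had no peak in the GEs and 2.05% covered in CTX, and *Ssbp2* had none in any list. The annotated 5′ end lay under a peak for 4 of the 12 in each GE and for 1 in CTX. Over all genes the share was 19.2% in MGE, 20.8% in LGE, 20.9% in CGE and 22.8% in CTX. This order depended on the 5′ end used. With the 5′ end of any transcript the counts were 6 in each GE (24.5% to 26.3% of all genes) and 7 in CTX (28.6%). Within 1 kb of the annotated 5′ end they were 5 in each GE and 6 in CTX, a setting with no share computed over all genes. At the annotated 5′ end itself *Lmx1a* was covered in all lists, and *Lmo1*, *Lmo3* and *Ssbp4* in the GEs and not in CTX, where the nearest peak was 509, 680 and 17 bases away.

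In 4 of the 12 the lists differed by 10 points or more, against 2.02% of all genes. MGE was the lowest list in each of the 4. Among genes covered in all 4 lists, which leaves out *Lmo4*, it was the lowest for 44.7%. *Lmo4*, which encodes a LIM-only protein that competes for the cofactors and acts in cortical patterning, was covered over 0% in MGE, 6.05% in LGE, 1.12% in CGE and 39.6% in CTX. *Lmo1* was covered over 6.25% in MGE, 22.4% in LGE, 21.1% in CGE and 27.1% in CTX. *Lmx1b*, a gene of dopaminergic and serotonergic neurons, was covered over 26.1%, 38.1%, 33.0% and 44.2% in the same order. CTX was thus the highest list for these genes, whereas it was the lowest for *Lhx2*. *Ssbp4* was covered over 6.08% in MGE, 19.1% in LGE, 19.3% in CGE and 14.6% in CTX. The median difference between lists was 2.70 points over the 12 genes.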

How the data were processed

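H3K27me3 CUT&Tag libraries were prepared from nuclei of each dissected region. Per the labels and the study's methods, the authors aligned paired reads to GRCm38 (mm10) with Bowtie2, removed duplicates with Picard, merged the samples of a region with SAMtools and then ran MACS in its broad mode, with a version and control not given in the sources used here. In the deposited lists, the authors gave each peak a fold enrichment (a ratio to background) and the −log10 of its q-value. All q-values were under 0.1. Read counts per peak are unknown, and no counting precision is given.

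Peaks on chromosomes 1 to 19 and X were analysed with Python 3.11.15 and numpy 2.4.6. Gene limits came from GENCODE M21 (GRCm38), and starts and promoter sequences from RefSeq (GRCm38.p6). All 13 promoter sequences matched the genome sequence at their coordinates. Coverage was the percentage of a window under peaks, a break an uncovered stretch between neighbouring peaks over a window, and a difference of 10 percentage points was counted. The coverage code was tested on simulated data. No p-value was computed, since each region is 1 merged list. All 10 genes were named, related genes past 10 points or with a 5′ end covered in some lists were named, and the 3 nearest genes by Euclidean distance were named for members past 10 points. The members and lists were chosen with earlier results of these data known. Alternatives were a q-value under 0.001, joining peaks under 3 kb apart, lists of equal number or covered bases, other windows, other 5′ ends, and 20 points.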

Additional observations from a re-analysis of the deposited data

How the results depend on the processing

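Restricting peaks to a q-value under 0.001, or the lists to equal numbers of peaks or equal covered bases, left all 40 covered percents of the members within 1.5 times their value. Window and joining changed more. With peaks under 3 kb apart joined, the median widest peak was 12161.5 bases in MGE, 9437 in LGE, 11173 in CGE and 10378 in CTX, and the breaks fell to 10, 13, 13 and 10. Over gene bodies without flanks the breaks numbered 17 in MGE, 17 in LGE, 18 in CGE and 15 in CTX, and the median covered percent was 48.0%, 43.7%, 51.2% and 52.0%. The count of members past 10 points was 1 with q under 0.001, with equal numbers of peaks and with 20 kb flanks, 5 with gene bodies and with 5 kb flanks, and 0 at a limit of 20 points. Members with less in CTX numbered 0 with joined peaks, with 20 kb flanks and at 20 points, and 2 with gene bodies. For *Lhx2* CTX was the lowest list in 5 of 7 settings, and LGE was lowest with gene bodies and with joined peaks. Members with more in MGE numbered 1 with equal numbers of peaks or equal covered bases and 2 with gene bodies or 5 kb flanks, those with more in CGE 1 with joined peaks, and those with less in LGE 1 with joined peaks and 1 with gene bodies. With joined peaks MGE was highest for 3 members and CGE for 4, with 20 kb flanks CGE for 2, and with gene bodies LGE for 1. With joined peaks the 5′ end counts rose to 9 in MGE, 8 in LGE, 9 in CGE and 8 in CTX. They rose to 9 in MGE and 10 in LGE, CGE and CTX with the 5′ end of any transcript, and to 9 in every list within 1 kb. MGE thus led alone in none of these settings. Among the alternatives, shares over all genes were computed only for the 5′ end of any transcript and for the RefSeq starts. The other counts given here therefore have no share over all genes to be read against. *Isl1* minus *Isl2* turned to −22.4 points in MGE, −15.4 in LGE and −2.28 in CTX with gene bodies, and to −18.3 in CGE. *Lhx3* minus *Lhx4* in CTX turned from 7.52 to −4.21 points with joined peaks and −0.468 with 20 kb flanks. The causes were not tested. The RefSeq starts were added after seeing the data. No paired analysis was possible because the samples of a region were merged before peaks were called, and for the same reason no replicate could be left out. A deeper library can yield more and weaker peaks, and no depth per peak is known.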

Other observations

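The strength of the peaks, given as the authors' −log10 q, is not used by the covered percent. In *Isl1*, which MGE covered most widely, the highest −log10 q was 19.9 in MGE against 60.1 in LGE, 81.4 in CGE and 70.6 in CTX, and the CGE value belonged to a peak of 984 bases 15.4 kb past the 5′ end. In *Lhx8* it was 24.5 in MGE, 56.0 in LGE, 79.6 in CGE and 52.7 in CTX. A q-value depends on the number of reads, and the lists also differ in their median −log10 q over all peaks, which was 3.38 in MGE, 4.21 in LGE, 4.61 in CGE and 3.81 in CTX. Ranked by −log10 q within its own list, the strongest peak of a member stood above 69.5% (*Lhx2* in CTX) to 97.7% (*Lhx1* in LGE) of peaks. Fold enrichment ranked them otherwise. Its median over all peaks was 2.99 in MGE, 2.98 in LGE, 2.71 in CGE and 2.73 in CTX. The highest fold of *Lhx1*, *Lhx3*, *Lhx5*, *Lhx6*, *Lhx8* and *Isl2* lay below this median in every list, and that of *Lhx2* and *Lhx9* above it. For *Lhx2* and *Lhx9* it belonged to a peak far from the 5′ end, described below. Without that peak *Lhx9* lay below the median in every list. *Lhx2* then lay below it in MGE (2.84) and CTX (2.49) and above it in LGE (3.27) and CGE (3.17).

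The highest fold enrichments in the windows of the members were at peaks far from the members' 5′ ends. In the *Lhx9* window, a peak of 324 to 434 bases lay 7.92 to 8.39 kb upstream of the 5′ end. It had a fold of 4.43 in MGE, 5.06 in LGE, 3.30 in CGE and 4.16 in CTX. In each list this peak covered the 5′ end of another protein-coding gene, *2310009B15Rik*, so it cannot be assigned to *Lhx9*. An *Lhx2* peak of 1133 to 1958 bases that began 39.1 to 39.3 kb past the 5′ end, at the edge of the window, had a fold of 3.60 in MGE, 5.00 in LGE, 4.25 in CGE and 3.88 in CTX. It was present in all 4 lists, CTX included, where the peaks around the 5′ end of *Lhx2* were narrow.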
